A study of Homo sapiens with 15 samples.

Results

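The NKG2D ligands are 8 human genes, MICA, MICB, ULBP1, ULBP2, ULBP3, RAET1E, RAET1G and RAET1L, chosen by their gene symbol in the deposited tables, out of 20443 gene IDs in all. RNA-seq of A375, an established line of human melanoma cells, gave 15 libraries, 3 in each of 5 groups. In the starvation set, cells held for 48 hours in 0.1% FBS (fetal bovine serum) were compared with cells held in 10% FBS for 48 hours. The overexpression set holds cells that overexpressed caMKL1 (a constitutively active form of MKL1) or MKL1 for 48 hours, with cells that carried a control vector for 48 hours as their controls. MKL1, whose current symbol is MRTFA, is an actin-regulated coactivator of the transcription factor SRF. All 5 groups are the same cell line with no other allele or agent named. The serum of the overexpression cultures, the vector's promoter and the change that makes caMKL1 active are stated in none of the labels. The labels do not say whether the 3 libraries of a group came from separate cultures, so the tests measure the spread between these libraries, which may be technical.

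NKG2D is an activating receptor on natural killer (NK) cells and on many cytotoxic T cells, encoded by KLRK1. Its ligands resemble MHC class I chains but present no peptide, and they appear on cells under stress, infection or transformation, which the receptor then marks for killing. MICA and MICB are transmembrane proteins encoded in the MHC, whereas the ULBP and RAET1 genes form a separate cluster further along the same chromosome, with several members held in the membrane by a GPI anchor. Tumour cells, melanoma included, can also shed the ligands from their surface through metalloproteases, which leaves the amount of RNA and the amount of surface protein as separate quantities.

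All 8 genes lie on chromosome 6 (GRCh38, GENCODE release 29). MICA (ENSG00000204520) spans chr6:31399784-31415315 and MICB (ENSG00000204516) spans chr6:31494881-31511124, both on the plus strand. In the distal cluster the order is RAET1E (ENSG00000164520, chr6:149883375-149898102, minus strand), RAET1G (ENSG00000203722, chr6:149916878-149923121, minus), ULBP2 (ENSG00000131015, chr6:149942000-149949235, plus), ULBP1 (ENSG00000111981, chr6:149964007-149973710, plus), RAET1L (ENSG00000155918, chr6:150018334-150025532, minus) and ULBP3 (ENSG00000131019, chr6:150063150-150069095, minus). A further gene ID, ENSG00000285991, carries the symbol RAET1E in the overexpression tables and no symbol in the starvation table. It is a readthrough model that shares 2641 exonic bases with LRP11, the nearest gene outside the cluster, and 1050 with RAET1E. These are 52.14% and 20.73% of its own exonic bases, and the second is 34.95% of those of RAET1E. More of it thus overlaps LRP11 than RAET1E, and it was kept apart.

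The promoters of 4 members are shown to let near copies be compared. MICA and MICB are related genes with alike promoters. ULBP2 and RAET1L have near-identical coding sequences. Their promoters were 45.95% identical over 346 aligned columns, less than those of MICA and MICB. Promoter activity was not measured. The sequences are RefSeq's (GRCh38.p14), from 250 bases before to 50 after the listed start, 5′ to 3′ on the gene's strand. They cover chr6:31403345-31403644 (MICA, plus strand), chr6:31497895-31498194 (MICB, plus), chr6:149941764-149942063 (ULBP2, plus) and chr6:150025483-150025782 (RAET1L, minus). Capitals mark motif matches, which are the heat shock element core and the GC box in MICA and MICB, the GC box and the E2F site in ULBP2, and the TEAD site in RAET1L.
MICA: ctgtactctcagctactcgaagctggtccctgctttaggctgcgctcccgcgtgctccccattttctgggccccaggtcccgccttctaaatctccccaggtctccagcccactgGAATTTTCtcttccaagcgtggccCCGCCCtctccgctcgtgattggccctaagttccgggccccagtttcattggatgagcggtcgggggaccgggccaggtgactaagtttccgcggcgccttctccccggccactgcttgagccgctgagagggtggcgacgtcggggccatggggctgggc
MICB: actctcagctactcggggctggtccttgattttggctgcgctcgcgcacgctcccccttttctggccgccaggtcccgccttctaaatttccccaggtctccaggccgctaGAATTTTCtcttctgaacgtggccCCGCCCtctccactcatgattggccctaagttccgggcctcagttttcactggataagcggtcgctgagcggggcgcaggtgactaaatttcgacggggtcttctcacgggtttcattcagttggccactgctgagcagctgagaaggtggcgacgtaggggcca
ULBP2: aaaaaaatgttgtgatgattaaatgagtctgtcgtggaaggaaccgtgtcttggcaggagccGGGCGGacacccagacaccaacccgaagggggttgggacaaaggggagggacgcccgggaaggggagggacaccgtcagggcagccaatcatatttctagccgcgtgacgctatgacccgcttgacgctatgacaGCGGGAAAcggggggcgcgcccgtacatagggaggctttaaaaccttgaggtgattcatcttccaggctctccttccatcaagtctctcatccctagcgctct
RAET1L: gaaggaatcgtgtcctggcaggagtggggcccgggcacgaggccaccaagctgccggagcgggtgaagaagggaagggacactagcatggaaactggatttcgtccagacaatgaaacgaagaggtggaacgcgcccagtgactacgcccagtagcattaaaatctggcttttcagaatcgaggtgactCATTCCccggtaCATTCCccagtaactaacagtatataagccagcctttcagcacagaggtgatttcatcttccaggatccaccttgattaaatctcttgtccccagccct

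Motifs were searched on both strands as GAANNTTC for the heat shock element core, GGGCGG for the GC box, TGACGTCA for the cAMP response element and GGAATG for the TEAD site, with the E2F site and the SRF-binding CArG box searched by their usual consensus. The MICA and MICB promoters were 77.85% identical over 316 aligned columns. Both held GAATTTTC, at bases -135 to -128 in MICA and -139 to -132 in MICB, followed by a GC box at -111 to -106 in MICA and -115 to -110 in MICB. The heat shock element core was found in 6.79% of 34796 distinct promoters and the GC box in 44.9%. ULBP2 held a GC box at -188 to -183 and an E2F site at -53 to -46, a motif found in 3.3% of promoters. ULBP3 held 6 GC boxes, ULBP1 held 2 and RAET1G held 1. RAET1L held 2 TEAD sites, a motif found in 14% of promoters. No match to any of the searched motifs was found in the 3 listed promoters of RAET1E. The CArG box, found in 1.3% of all promoters, had no match in the window of any of the 8 genes. These are matches of letters in short windows, not measured binding.

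**Figure D1:**
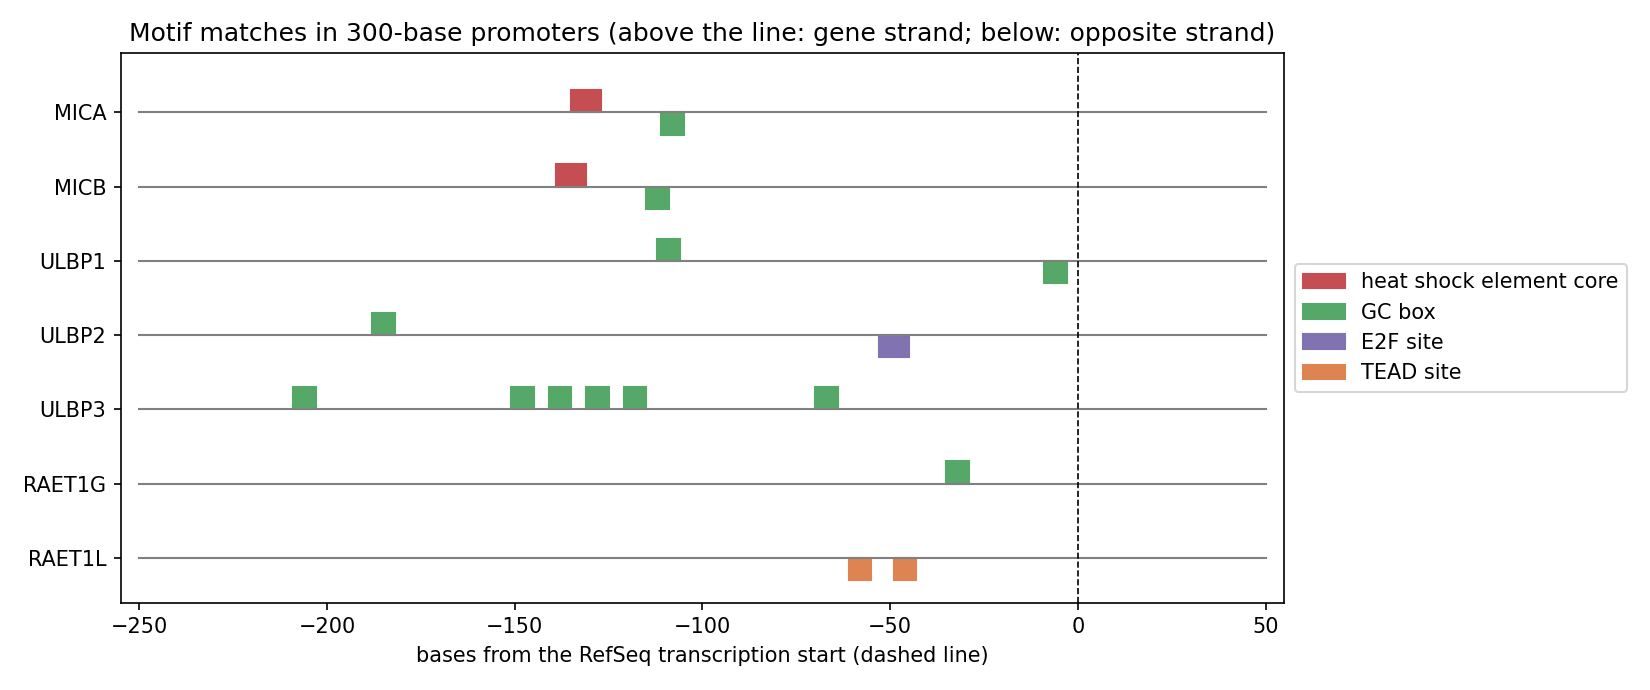
Motif matches in the 300-base promoters of 7 ligand genes; the x axis is the distance in bases from the RefSeq start, and boxes above or below each line are matches on the gene's strand or the opposite one. MICA and MICB share a heat shock element core followed by a GC box, whereas ULBP2, ULBP3 and RAET1L each show another arrangement.

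Total counts ranged from 13937251 to 23957043 per library. The overexpressed gene checked the labels: MRTFA averaged 464 ± 10.0 CPM (counts scaled to a common library size) in caMKL1 cells against 25.5 ± 0.255 in control vector cells, and 750 ± 29.7 CPM in MKL1 cells against 26.0 ± 0.250 in control vector cells (SD, n = 3 each). SRF rose by 2.03 on the log2 scale with caMKL1 (edgeR adjusted p = 9.71e-14), whereas with MKL1 the log2 fold change was 0.15 (adjusted p = 0.0536). SOX10, a melanocyte lineage factor, was at 422 to 1010 CPM in all libraries, whereas TYR, the pigment enzyme, reached at most 2 counts. The 8 melanocyte markers summed to 489 to 521 CPM in 0.1% FBS against 561 to 665.5 in 10% FBS. In caMKL1 cells they summed to 821 to 914 CPM and in MKL1 cells to 1045 to 1141, against 963 to 1070 in control vector cells. In starved cells SOX10 and S100B fell by 0.38 and 1.24, whereas MITF and MLANA rose by 0.77 and 1.55. With caMKL1, SOX10 and DCT fell by 0.24 and 2.66 and S100B rose by 0.43. MITF, DCT and S100B rose with MKL1. Each of these passed by edgeR. Of 12 lymphocyte markers, 8 had at most 10 counts in every library and CD2 had none; their summed level was 2.28 to 3.34 CPM in 0.1% FBS against 1.33 to 1.78 in 10% FBS, and 4.21 to 5.56 CPM in caMKL1 cells and 1.15 to 2.14 in MKL1 cells against 1.11 to 1.38 in control vector cells. TRAC, a T cell receptor constant segment, led that list with 72 counts in caMKL1 cells, where it rose by 2.48 on the log2 scale (edgeR adjusted p = 3.33e-07). In the starvation set TRAC had at most 4 counts. There PTPRC and CD4 rose by 1.28 and 1.04 in 0.1% FBS (adjusted p = 0.00861 and 0.0274), at no more than 20 counts. CD4 also rose with caMKL1, by 1.22 (adjusted p = 0.0223). The 6 epithelial markers summed to 199 to 209 CPM in 0.1% FBS against 387 to 438 in 10% FBS, and to 190 to 196 CPM in caMKL1 cells and 216 to 239 in MKL1 cells against 236 to 239 in control vector cells, mostly from KRT18; CDH1 and KRT19 had at most 4 counts in any library. With caMKL1 that list moved both ways: KRT18 fell by 0.59 on the log2 scale, whereas KRT8 rose by 0.84 and KRT14 by 1.79 (edgeR adjusted p = 2e-08, 3.09e-07 and 3.14e-10). The 6 fibroblast markers summed to 19.5 to 23.3 CPM in 0.1% FBS against 19.5 to 21.7 in 10% FBS, and to 18.8 to 20.4 CPM in caMKL1 cells and 14.1 to 17.4 in MKL1 cells against 10.3 to 10.8 in control vector cells. LUM, a matrix proteoglycan, rose by 1.91 with caMKL1 and 1.06 with MKL1 (adjusted p = 8.9e-09 and 0.000159), while COL1A1, a collagen chain, had a log2 fold change of 0.16 with caMKL1 (adjusted p = 0.556). The summed fibroblast level was thus higher in the groups where RAET1E was higher within the overexpression set. In the starvation set RAET1E was also higher in 0.1% FBS, whereas the summed fibroblast level overlapped between the groups. Of the 6 fibroblast markers there, FAP and LUM rose whereas COL1A1 and DCN fell, each passing by edgeR. With caMKL1, LUM was the only 1 of 4 tested fibroblast markers to pass. The part of these markers in the ligand results was not tested. The receptor gene KLRK1 had at most 9 counts in any library. In such bulk RNA, fewer cells expressing a ligand and less of its RNA per cell cannot be told apart.

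The 8 genes fell into 4 that were well expressed, RAET1E at a lower level, and 3 that were barely detected. Levels are compared between genes as FPKM, the authors' values scaled for gene length and library size. In 0.1% FBS the order of mean FPKM was MICA at 17.5 ± 0.174, ULBP2 at 11.9 ± 1.5, MICB at 6.38 ± 0.385, ULBP3 at 3.91 ± 0.251 and RAET1E at 2.63 ± 0.930, against ULBP2 at 11.2 ± 0.704, MICA at 7.77 ± 0.491, MICB at 5.70 ± 0.484, ULBP3 at 4.5 ± 0.477 and RAET1E at 1.25 ± 0.214 in 10% FBS (SD, n = 3). MICA thus took the first place from ULBP2 in starved cells, and no library of the 2 genes overlapped in either group.

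In caMKL1 cells ULBP2 led at 25.9 ± 0.929 FPKM, followed by MICA at 10.2 ± 0.503, ULBP3 at 4.51 ± 0.682, MICB at 4.45 ± 0.0718 and RAET1E at 1.72 ± 0.389. In MKL1 cells MICA was at 8.40 ± 1.2 FPKM, ULBP2 at 8.33 ± 0.542, MICB at 5.24 ± 0.103, ULBP3 at 3.66 ± 0.320 and RAET1E at 1.02 ± 0.195. In control vector cells MICA was at 8.82 ± 0.632 FPKM, ULBP2 at 8.71 ± 0.260, MICB at 6.06 ± 0.268, ULBP3 at 4.37 ± 0.350 and RAET1E at 0.725 ± 0.0211. MICA and ULBP2 overlapped in the MKL1 and control vector groups, and ULBP3 and MICB overlapped in the caMKL1 group, so those neighbours in the order did not differ beyond their spread.

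RAET1L, RAET1G and ULBP1 stayed below 1 FPKM in all 15 libraries. RAET1G ranged from 1 to 16 counts, RAET1L from 1 to 12 and ULBP1 from 0 to 2. ULBP1 was therefore at or under the floor of 3 counts in every library, and no fold is given for it.

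**Figure D2:**
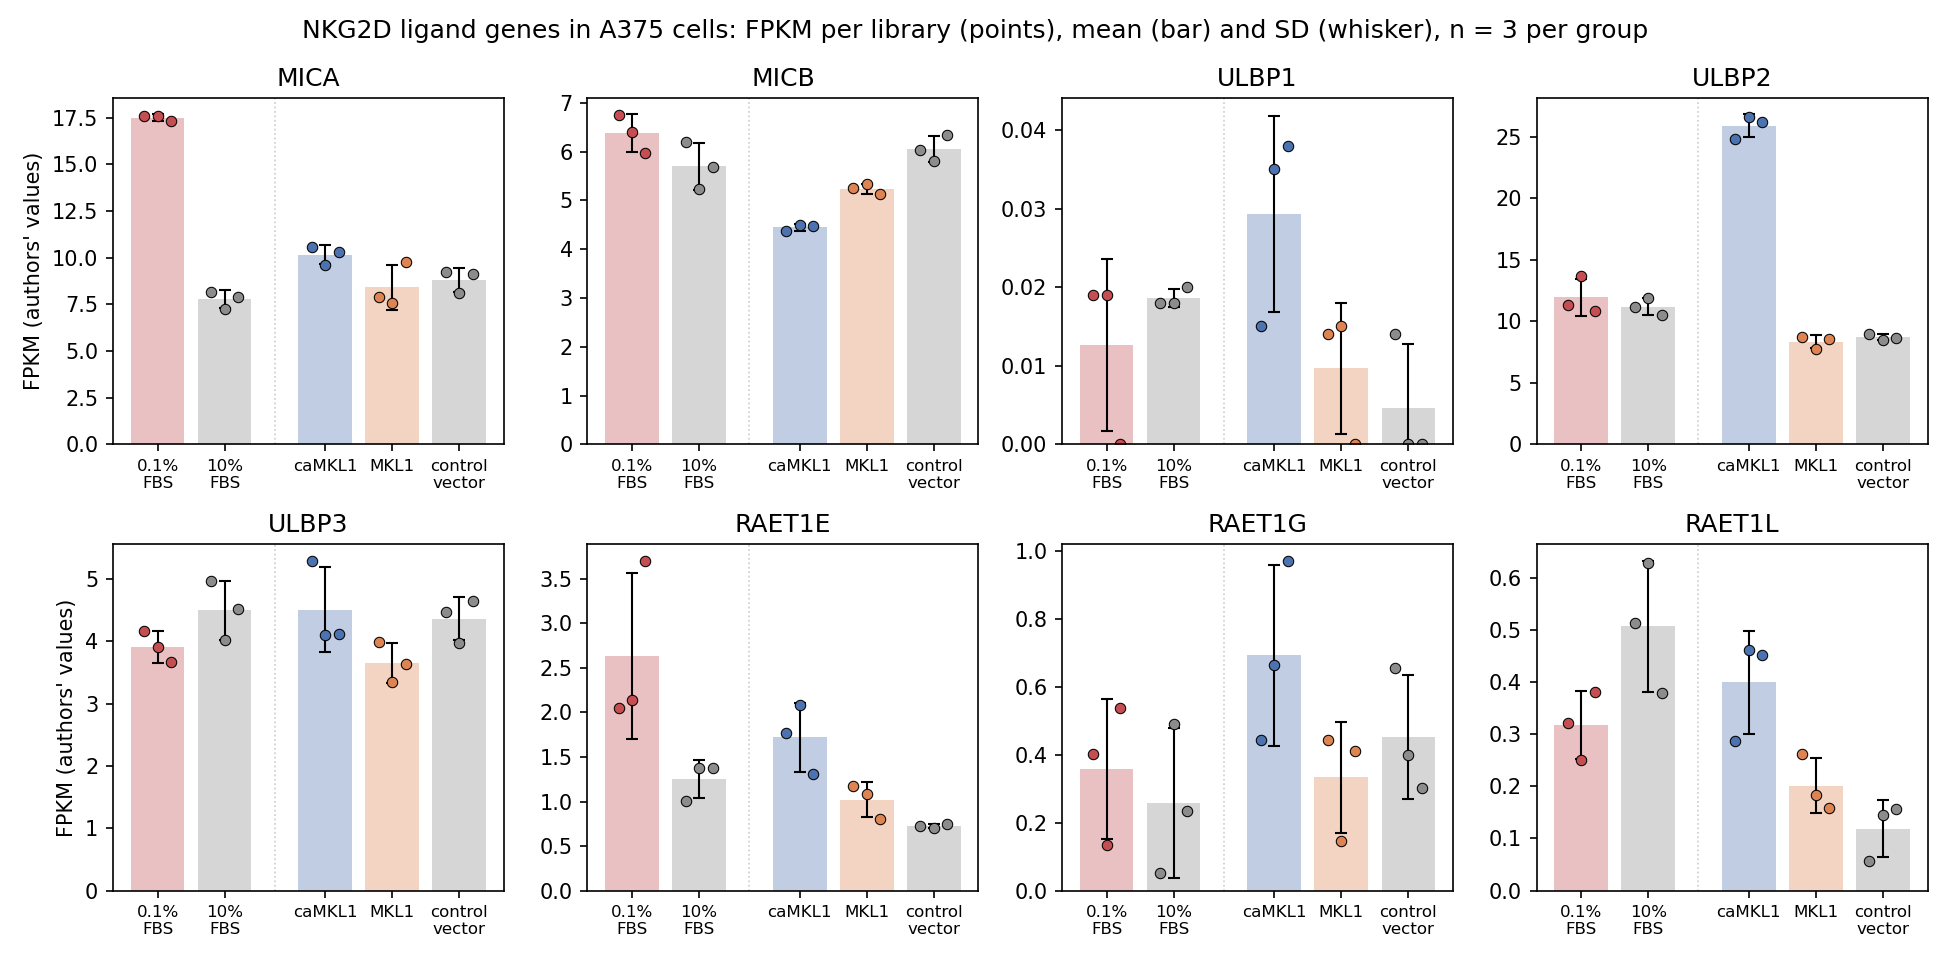
FPKM of the 8 ligand genes per library (points), with the mean (bar) and SD (whisker) of 3 libraries; each panel has its own y axis from 0, and the dotted line parts the starvation set from the overexpression set. MICA stands highest in 0.1% FBS and ULBP2 in caMKL1 cells.

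Summed over the 8 genes, the ligands reached 42.6, 44.1 and 42.4 FPKM in 0.1% FBS, against 32.1, 30.9 and 30.6 FPKM in 10% FBS. MICA made up 41.3%, 39.9% and 40.8% of that sum in 0.1% FBS, against 25.5%, 23.4% and 25.9% in 10% FBS. The sum was 47.6, 48.1 and 47.9 FPKM in caMKL1 cells and 27.7, 25.4 and 28.5 in MKL1 cells, against 30.2, 27.6 and 30.0 in control vector cells. ULBP2 made up 52.2%, 55.4% and 54.7% of it in caMKL1 cells, against 29.9%, 30.8% and 28.8% in control vector cells. The sum was thus higher in every library of the starved and of the caMKL1 cells than in any library of their controls, with a different gene holding the largest share in each. The sum is a description of RNA, and no test was made on it.

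**Figure D3:**
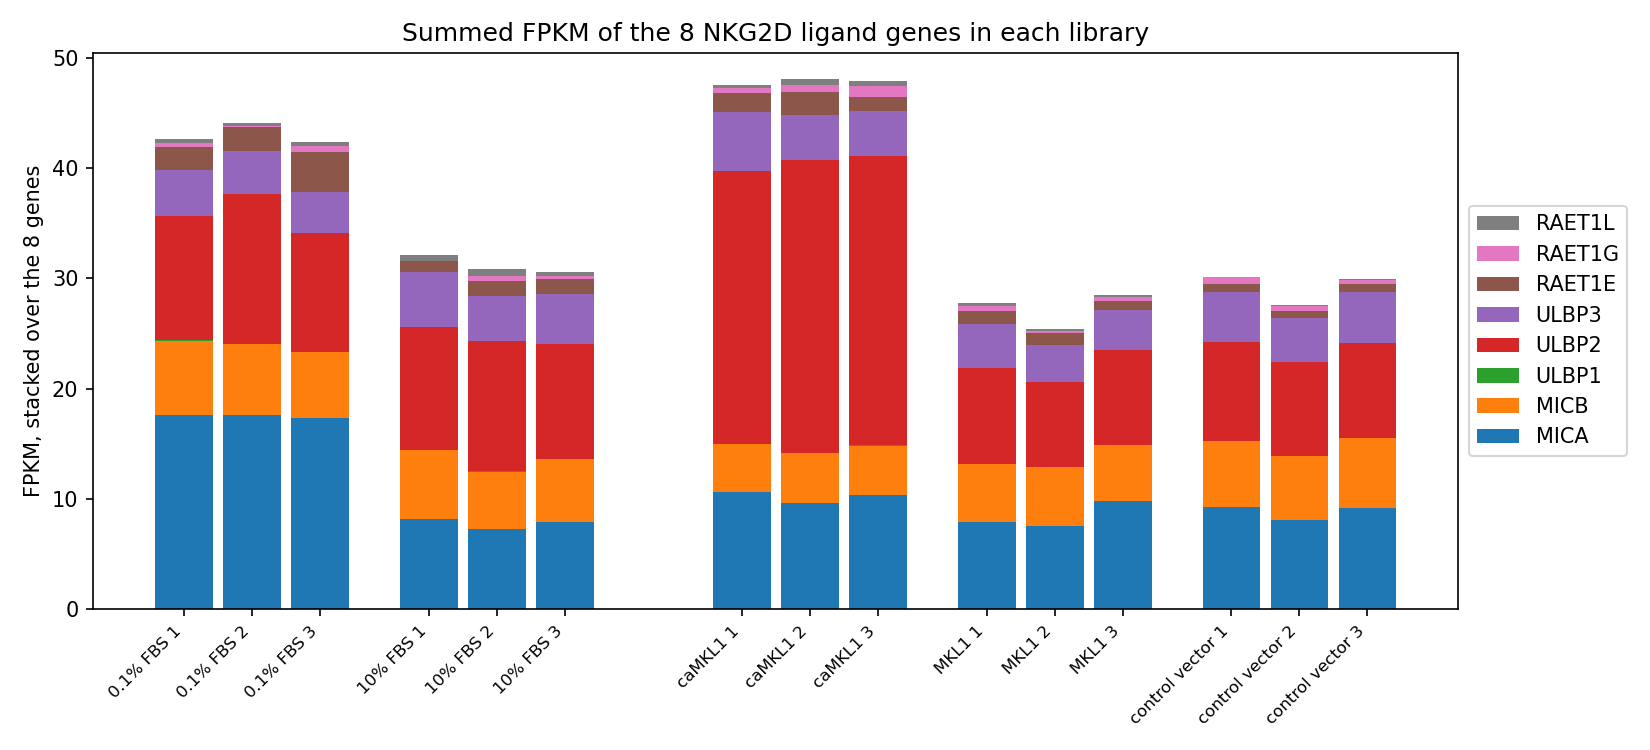
FPKM of the 8 ligand genes stacked for each of the 15 libraries; colours are genes. The stacks stand at 42.4 to 44.1 FPKM in 0.1% FBS and 47.6 to 48.1 in caMKL1 cells, with MICA the widest band in 0.1% FBS and ULBP2 in caMKL1 cells.

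Serum starvation raised MICA and RAET1E. Counts of MICA were 393, 390 and 326 in 0.1% FBS, against 193, 165 and 173 in 10% FBS. Scaled to CPM these were 23.3, 23.4 and 23.2 in 0.1% FBS, against 11.3, 9.92 and 11.1 in 10% FBS. All starved libraries were above all libraries in 10% FBS, and the rise was 1.11 ± 0.0854 on the log2 scale, or 2.16-fold (SE; edgeR adjusted p = 5.27e-08). RAET1E, which encodes ULBP4, had 74, 83 and 94 counts in 0.1% FBS, against 35, 48 and 45 in 10% FBS, again without overlap. Its rise was 1.03 ± 0.202 on the log2 scale (adjusted p = 0.000471). Of the 5 members tested, 2 rose and 0 fell, beside 31.2% of all 13307 tested genes that rose, 31.4% that fell and 62.6% that changed either way.

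The other 3 tested members did not pass in starved cells. ULBP2 had 252, 300 and 202 counts in 0.1% FBS, against 257, 268 and 221 in 10% FBS, which overlapped. Its log2 fold change was 0.06, with a 95% interval of -0.15 to 0.28 (edgeR adjusted p = 0.609). MICB, the close relative of MICA, had a log2 fold change of 0.13 with an interval of -0.08 to 0.33 (adjusted p = 0.258). ULBP3 had a log2 fold change of -0.23 with an interval of -0.46 to -0.01, and its adjusted p was 0.0655. RAET1L, RAET1G and ULBP1 fell below the filter on low counts: RAET1L had 5, 4 and 5 counts in 0.1% FBS against 7, 12 and 8 in 10% FBS, RAET1G had 6, 2 and 7 against 1, 9 and 4, and ULBP1 had 1, 1 and 0 against 1, 1 and 1.

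With caMKL1, ULBP2 had the largest rise among the tested members. Counts of ULBP2 were 693, 634 and 580 in caMKL1 cells, against 270, 236 and 276 in control vector cells. In CPM these were 33.4, 35.9 and 35.4 in caMKL1 cells, against 12.0, 11.2 and 11.4 in control vector cells. The groups were far apart, and the rise was 1.59 ± 0.0695 on the log2 scale, or 3.02-fold (edgeR adjusted p = 9.34e-11). RAET1E had 66, 77 and 52 counts in caMKL1 cells, against 34, 36 and 33 in control vector cells, and rose by 1.22 ± 0.205 on the log2 scale (adjusted p = 0.000117). Its readthrough ID ENSG00000285991 had 11, 12 and 18 counts in caMKL1 cells, against 0, 0 and 12 in control vector cells. These raw counts overlap, whereas in CPM they did not, at 0.530, 0.679 and 1.10 in caMKL1 cells against 0, 0 and 0.496. Its adjusted p was 0.024 by edgeR against 0.36 in the authors' deposited table, so no rise is stated for it.

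MICB fell with caMKL1. It had 220, 194 and 179 counts in caMKL1 cells, against 327, 291 and 366 in control vector cells, and no library of the groups overlapped. It fell by 0.42 on the log2 scale, with an SE of 0.0814 (edgeR adjusted p = 0.000397). MICA passed narrowly, at 14.6, 13.4 and 14.3 CPM in caMKL1 cells against 12.7, 11.1 and 12.3 in control vector cells, a log2 fold change of 0.22 with an adjusted p of 0.0324. That call was lost in 6 of 13 alternatives, with adjusted p from 0.0104 to 0.139, among them the fits without control vector library 2 (0.139), caMKL1 library 1 (0.109) and caMKL1 library 3 (0.0827), and in the authors' deposited table, where the adjusted p was 0.134.

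ULBP3 and RAET1G did not pass with caMKL1, with log2 fold changes of 0.18 (interval -0.03 to 0.38, edgeR adjusted p = 0.124) and 0.60 (interval -0.22 to 1.42, adjusted p = 0.188). RAET1L had 8, 11 and 10 counts in caMKL1 cells, against 1, 4 and 5 in control vector cells; it was below the filter, and without the filter its adjusted p was 0.0119, against 0.0522 in the authors' deposited table. ULBP1 had 1, 2 and 2 counts in caMKL1 cells, against 1, 0 and 0 in control vector cells. Of the 6 members tested, 3 rose and 1 fell, beside 30.5% of all 13558 tested genes that rose, 33.1% that fell and 63.6% that changed either way. The share of members called, 66.7%, lies near that background.

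ULBP2 and RAET1L are 96.75% identical over their coding sequences of 738 bases each. Of the windows of ULBP2 transcripts, 32.23% at 50 bases and 11.92% at 100 bases also occur in another member. For RAET1G these shares were 12% and 1.483%. Reads could have been divided between these copies by the counting. In caMKL1 cells ULBP2 had 580 to 693 counts and RAET1L had 8 to 11. MICA and MICB, 78.63% identical in coding sequence, share 45 windows of 50 bases but no window of 100 bases. An antisense gene, RAET1E-AS1, shares at most 68 of the 3004 exonic bases of RAET1E (2.264%) and 138 of the 1486 of RAET1G (9.287%), and HCP5 shares 62 of the 2386 of MICA (2.598%). The sources used here do not give the strand used in counting, so reads from these shared stretches cannot be told apart.

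With MKL1, ULBP2, MICA and ULBP3 did not pass. ULBP2 had 267, 210 and 269 counts in MKL1 cells, against 270, 236 and 276 in control vector cells, with a log2 fold change of -0.09 (interval -0.28 to 0.10, edgeR adjusted p = 0.452). MICA had a log2 fold change of -0.08 (interval -0.31 to 0.14, adjusted p = 0.576) and ULBP3 of -0.20 (interval -0.41 to 0.01, adjusted p = 0.134). RAET1E had 54, 53 and 49 counts in MKL1 cells, against 34, 36 and 33 in control vector cells, and MICB had 12.5, 12.8 and 12.2 CPM in MKL1 cells, against 14.8, 14.1 and 15.4 in control vector cells. Neither pair of groups overlapped. RAET1E rose by 0.58 ± 0.206 on the log2 scale (adjusted p = 0.0471) and MICB fell by 0.24 (SE 0.0784, adjusted p = 0.0327). Of the 5 members tested, 1 rose and 1 fell, beside 15.8% of all 13409 tested genes that rose, 15.4% that fell and 31.2% that changed either way. Without MKL1 library 3, 2595 genes were called in place of 4182.

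Both MKL1 calls are close to the threshold. The RAET1E call was lost in 9 of 13 alternatives, including every fit that left out 1 library, with adjusted p from 0.0383 to 0.169. The MICB call was lost in 5 of 13, with adjusted p from 0.0124 to 0.115, among them the fits without control vector library 3 (0.0862), MKL1 library 1 (0.0745) and MKL1 library 3 (0.115). In the authors' deposited table the adjusted p was 0.216 for RAET1E and 0.146 for MICB. RAET1L had 8, 5 and 5 counts in MKL1 cells against 1, 4 and 5 in control vector cells, RAET1G had 10, 3 and 9 against 14, 9 and 8, and ULBP1 had 1, 1 and 0 against 1, 0 and 0. The MKL1 and caMKL1 comparisons share their control libraries.

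Set directly against each other in a fit of the 9 overexpression libraries, caMKL1 and MKL1 cells had their largest called difference among the members at ULBP2. ULBP2 was higher in caMKL1 cells by 1.70 ± 0.0708 on the log2 scale, or 3.25-fold (edgeR adjusted p = 1.31e-12). RAET1E was higher by 0.66 ± 0.188 (adjusted p = 0.00708), ULBP3 by 0.40 ± 0.0932 (adjusted p = 0.00181) and MICA by 0.33 ± 0.0987 (adjusted p = 0.0106). RAET1G, at 10, 12 and 16 counts in caMKL1 cells against 10, 3 and 9 in MKL1 cells, had a log2 fold change of 1.13 ± 0.435 (adjusted p = 0.0374). RAET1G was below the filter on low counts in the MKL1 comparison. It entered this fit mainly through the caMKL1 libraries, where it is high, so no support is drawn from its call. MICB had a log2 fold change of -0.17 and did not pass (adjusted p = 0.0918). Of the 6 members tested, 5 rose, RAET1G among them, and 0 fell, beside 25.2% of all 13720 tested genes that rose, 27% that fell and 52.2% that changed either way. The RAET1G call was lost in 6 of 14 alternatives, with adjusted p from 0.0261 to 0.173, among them the fits without MKL1 library 2 (0.14), MKL1 library 3 (0.0582), caMKL1 library 2 (0.0772) and caMKL1 library 3 (0.173). The RAET1E call was lost without caMKL1 library 2 (0.0579) and the MICA call without MKL1 library 2 (0.0514).

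**Figure D4:**
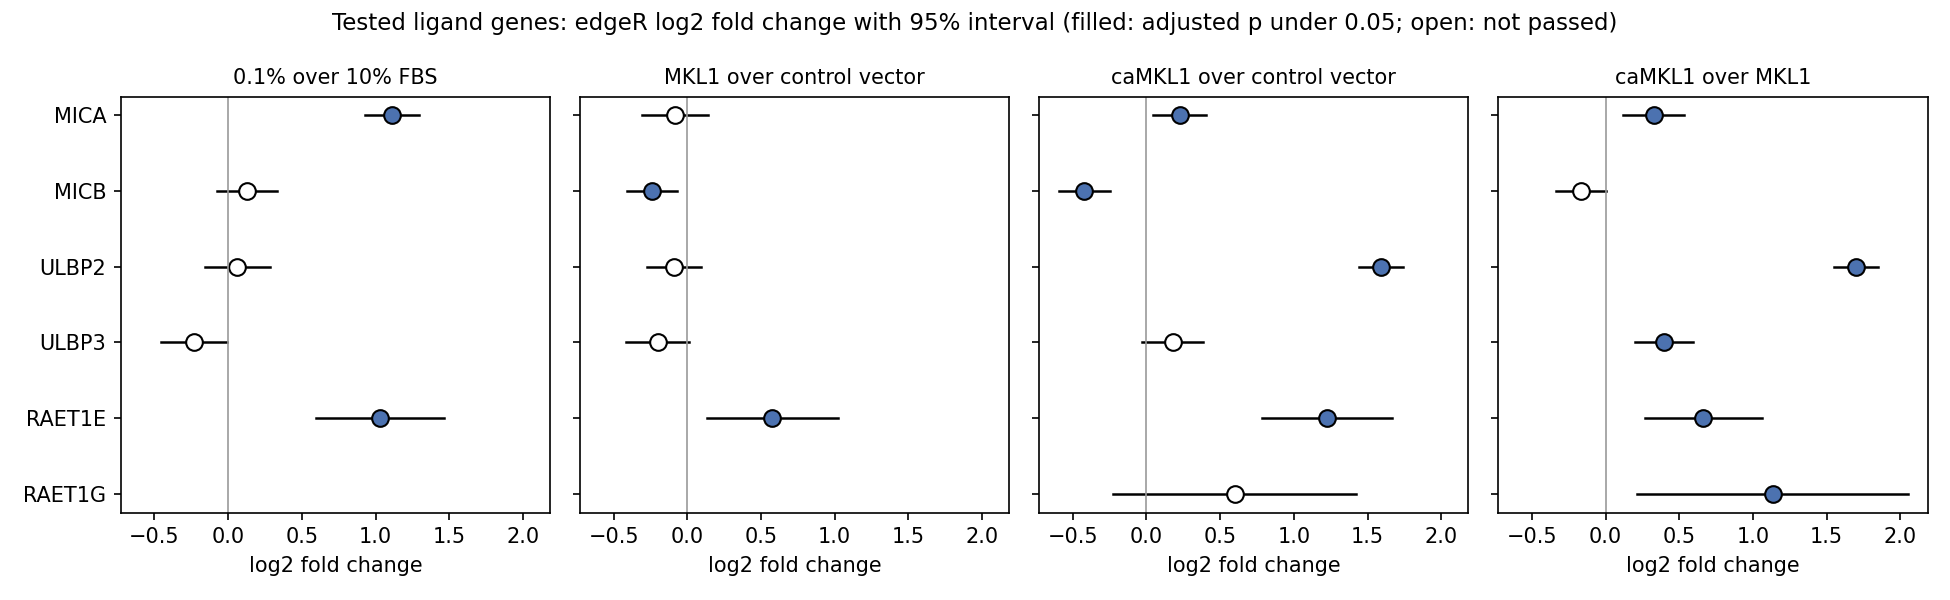
Log2 fold changes of the tested ligand genes in 4 comparisons, with 95% intervals from edgeR; filled points passed an adjusted p of 0.05 and open points did not. MICA lies farthest right in starved cells and ULBP2 in caMKL1 cells, and RAET1E lies right of 0 in all 4 panels.

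Whether starvation and caMKL1 moved a gene to a different extent was tested as the difference of the log2 fold changes, starvation minus caMKL1, over all 15 libraries. These comparisons share no library. The difference was 0.89 ± 0.132 for MICA (edgeR adjusted p = 5.89e-06) and -1.53 ± 0.120 for ULBP2 (adjusted p = 3.47e-10). It was 0.55 ± 0.116 for MICB (adjusted p = 0.000328) and -0.41 ± 0.135 for ULBP3 (adjusted p = 0.0139). For RAET1L it was -2.68 ± 0.692 (adjusted p = 0.00225), on 1 to 12 counts per library. RAET1L was below the filter on low counts in both the starvation and the caMKL1 comparison. Its highest counts lay in the starvation controls and in caMKL1 cells, where high values make this difference negative. No support is therefore drawn from the RAET1L call. For RAET1E it was -0.19 with an interval of -0.80 to 0.41 (adjusted p = 0.597), and for RAET1G it was -0.45 with an interval of -2.17 to 1.27 (adjusted p = 0.668). Of the 7 members tested, 2 differences were positive and 3 negative past the threshold, RAET1L among the 3, beside 28.6% of all 13882 tested genes that were positive, 27.4% that were negative and 56% that passed either way. The starvation and overexpression libraries come from separate sets, so any difference between the sets in culture or sequencing cannot be told apart from a difference in response.

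RAET1E was the member whose rise passed in every comparison with a control, narrowly so with MKL1. Its FPKM were 2.05, 2.14 and 3.71 in 0.1% FBS, against 1.00, 1.37 and 1.37 in 10% FBS. The length implied by its counts and FPKM ranged from 1781 to 2606 bases between libraries, and that of ULBP3 from 2263 to 3111, whereas that of ULBP2 was 1335 bases throughout. The FPKM of RAET1E and ULBP3 therefore also move with how the authors' method divided reads among transcripts, and counts and CPM are the values tested.

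Genes known to act on the ligands moved in several directions. Their counts stand beside the shares of all tested genes that passed either way, which were 62.6% in starved cells, 63.6% with caMKL1 and 31.2% with MKL1. Nothing is read from these counts as particular to a list. Of 10 heat shock genes, whose factor HSF1 is known to act on the MICA and MICB promoters, 0 rose and 10 fell in starved cells, with a median log2 fold change of -0.47 beside -0.0042 over all tested genes. HSPA8 fell by 0.57 and HSP90AA1 by 0.55 on the log2 scale (edgeR adjusted p = 1.01e-09 and 1.96e-08). With caMKL1, 2 rose and 8 fell: HSPB1, a small heat shock protein, rose by 1.92 (adjusted p = 8.91e-14) and HSPD1, the mitochondrial chaperonin, fell by 0.65 (adjusted p = 3.81e-09). With MKL1, 4 rose and 3 fell, among them HSPA1A, which rose by 0.77 (adjusted p = 6.96e-07). HSPA1A and HSPA1B are near copies, so their counts are uncertain.

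Of 20 transcription and DNA damage regulators reported to act on ligand genes, 19 were tested. In starved cells 4 rose and 12 fell; ATM, the DNA damage kinase, rose by 1.15 (edgeR adjusted p = 1.11e-08), and ATF4 fell by 0.65 (adjusted p = 8.5e-09). With caMKL1, 4 rose and 11 fell, and with MKL1 3 rose and 7 fell. E2F1, a driver of S-phase genes, fell by 0.92 in starved cells, 0.88 with caMKL1 and 0.65 with MKL1 (adjusted p = 3.33e-07, 4.82e-09 and 1.18e-05). Of 8 regulators that act on RNA, 4 rose and 2 fell in starved cells, 4 rose and 3 fell with caMKL1, and 2 rose and 0 fell with MKL1. ZFP36, which destabilises AU-rich messages, rose by 1.78 with caMKL1 (adjusted p = 4.24e-12), whereas its relative ZFP36L1 fell by 0.81 (adjusted p = 3.56e-09). XRN1, a 5′ to 3′ exonuclease, rose by 0.74 in starved cells (adjusted p = 5.55e-07).

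Of 12 genes of ligand shedding (proteases, their inhibitors and partners), 11 were tested. With caMKL1, 5 rose and 5 fell: the inhibitors TIMP3 and TIMP2 rose by 1.36 and 1.19 on the log2 scale, and PDIA6, a disulfide isomerase that takes part in MICA shedding, by 1.02 (edgeR adjusted p = 1.21e-13, 3.04e-12 and 6.81e-12). The protease ADAM9 rose by 0.94 (adjusted p = 1.69e-10), whereas ADAM10 fell by 0.26 (adjusted p = 0.000212) and ADAM17 by 0.17 (adjusted p = 0.0133). In starved cells 4 rose and 6 fell: TIMP3 fell by 1.11 and MMP2 by 0.85 (adjusted p = 1.9e-11 and 1.48e-09), whereas ADAM17 rose by 0.44 (adjusted p = 4.43e-05). With MKL1, 4 rose and 2 fell. Of 8 genes that attach or remodel GPI anchors, 1 rose and 4 fell in starved cells, 2 rose and 5 fell with caMKL1, and 1 rose and 1 fell with MKL1. PIGK, the catalytic subunit of the transamidase, rose by 0.40 with caMKL1 (adjusted p = 2.86e-05).

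Ligands of other NK cell receptors were set beside the NKG2D ligands. Of 15 listed, 14 were tested. In starved cells 6 rose and 5 fell, beside 31.2% and 31.4% of all tested genes: NCR3LG1, the ligand of NKp30, averaged 101 CPM in 0.1% FBS against 22.8 in 10% FBS and rose by 2.14 on the log2 scale (edgeR adjusted p = 3.3e-11). SLAMF7 rose by 2.17 and TNFSF9, the ligand of 4-1BB, by 1.43 (adjusted p = 3.85e-08 and 9.56e-08). With caMKL1, 6 rose and 6 fell, beside 30.5% and 33.1% of all tested genes. SLAMF7 had the largest rise of the list, 2.52 (adjusted p = 2.64e-07), at a mean of 3.24 CPM in caMKL1 cells against 0.563 in control vector cells. PVR and NECTIN2, ligands of DNAM-1, rose by 0.68 and 0.79 (adjusted p = 2.5e-09 and 4.4e-07), while NCR3LG1 had a log2 fold change of -0.18 (adjusted p = 0.0487). NECTIN2 fell by 0.75 in starved cells (adjusted p = 3.42e-07). VIM, an intermediate filament protein, fell by 0.91 in starved cells (adjusted p = 4.46e-11), and PCNA, the replication clamp, by 0.75 with caMKL1 (adjusted p = 7.54e-10). With MKL1, 1 rose and 3 fell, beside 15.8% and 15.4% of all tested genes, the one that rose being SLAMF7, at 0.93 (adjusted p = 0.0215).

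The genes that flank the ligands moved in both directions. Of 7 tested neighbours of MICA and MICB, 2 rose and 3 fell in starved cells, beside 31.2% and 31.4% of all tested genes, a share called that lies near the background. HLA-B, on one side of MICA, averaged 90.6 CPM in 0.1% FBS against 49.7 in 10% FBS and rose by 0.87 on the log2 scale, and HLA-C rose by 0.37 (edgeR adjusted p = 7.1e-09 and 5.77e-05). DDX39B, beyond MICB, fell by 0.62 (adjusted p = 1.54e-08). MICB, with 79565 bases between it and MICA, did not pass. The gene models of HLA-B and HLA-C overlap and their sequences are alike, so their counts are uncertain. With caMKL1, 2 of these neighbours rose and 3 fell, beside 30.5% and 33.1% of all tested genes, and with MKL1 0 rose and 1 fell, beside 15.8% and 15.4%.

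Of 10 tested neighbours of the ULBP and RAET1 cluster, 3 rose and 3 fell both in starved cells and with caMKL1, and 1 rose and 1 fell with MKL1, beside 62.6%, 63.6% and 31.2% of all tested genes that passed either way in these comparisons. The nearest gene outside the cluster next to RAET1E, LRP11, had log2 fold changes of -0.08 in starved cells (edgeR adjusted p = 0.554) and -0.03 with caMKL1 (adjusted p = 0.764). PLEKHG1 rose by 1.11 with caMKL1 (adjusted p = 5.03e-07), and AKAP12 rose by 1.22 in starved cells (adjusted p = 2.05e-11).

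**Figure D5:**
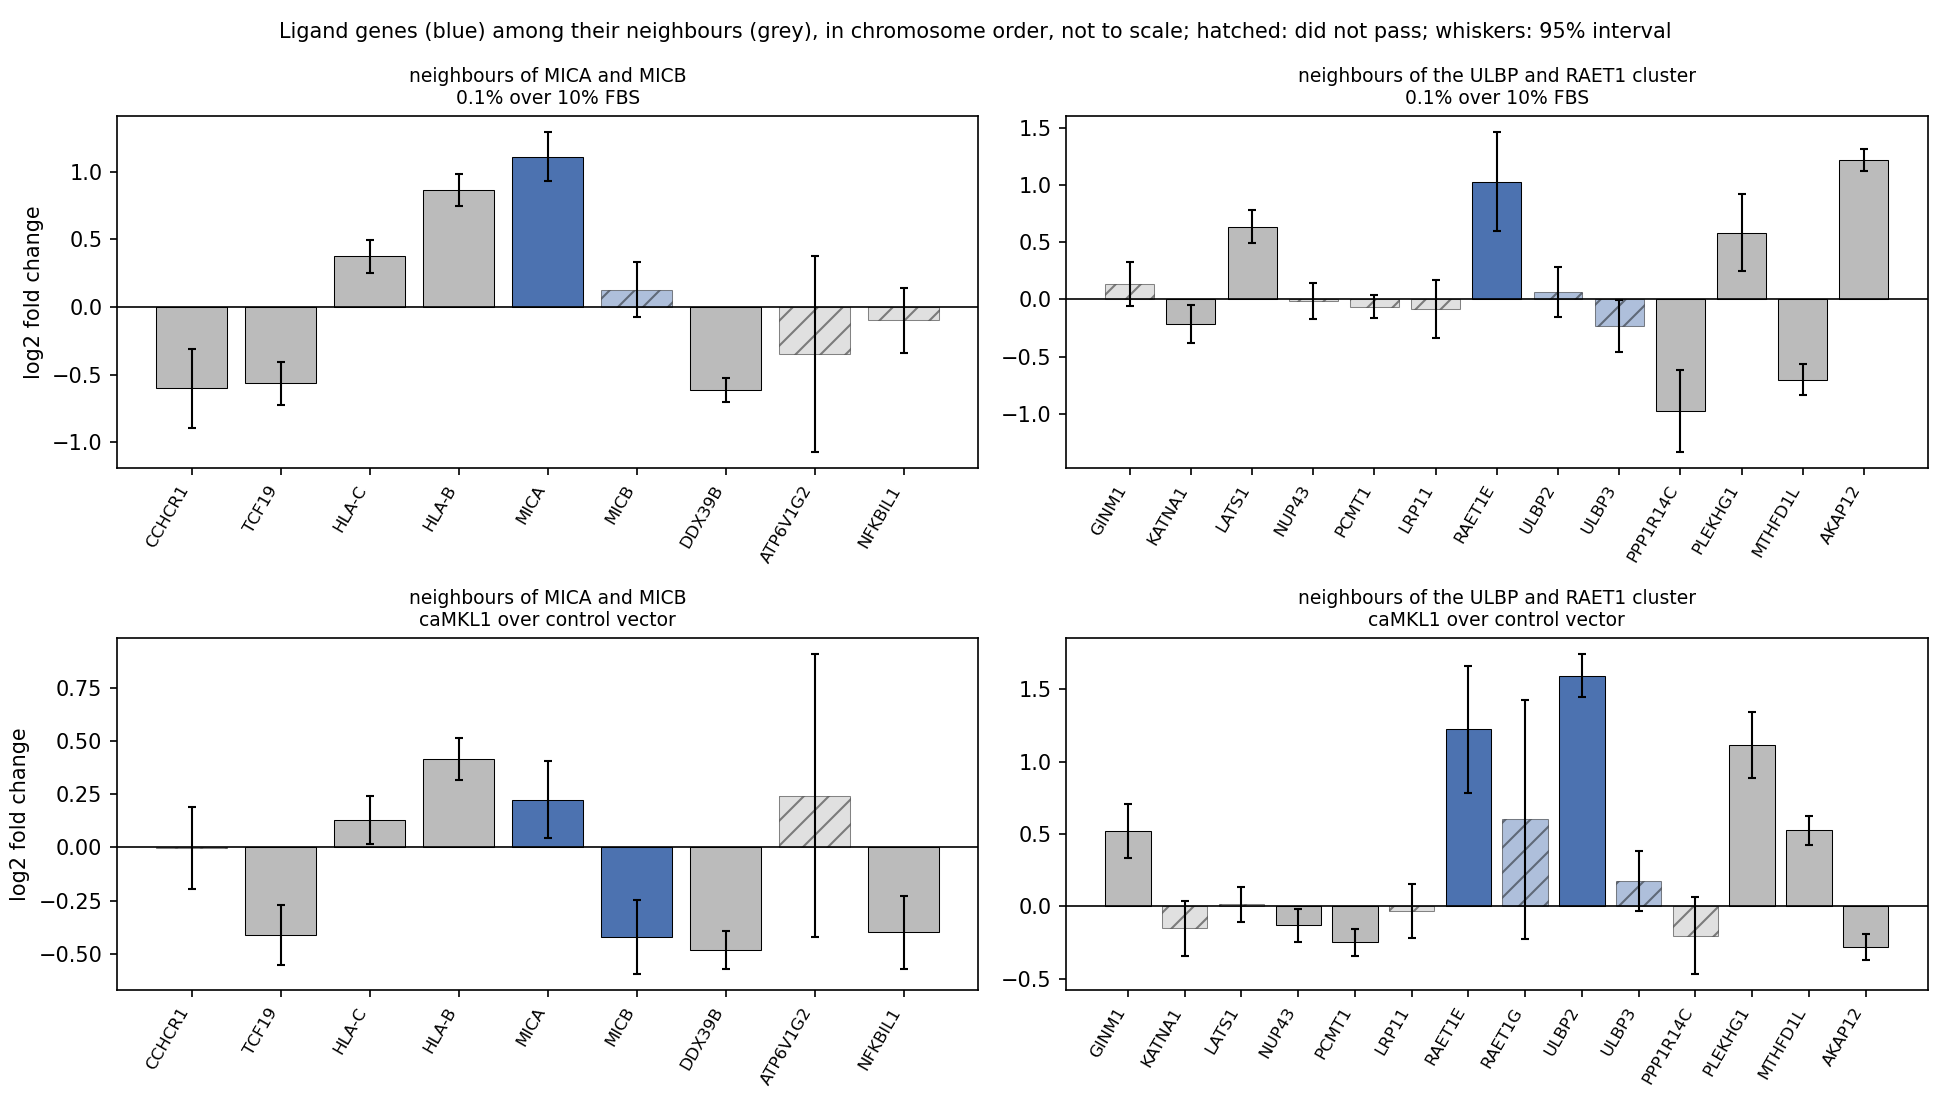
Log2 fold changes of the ligand genes (blue) and their tested neighbours (grey) in chromosome order, not to scale, for 0.1% over 10% FBS (top) and caMKL1 over control vector (bottom); whiskers are 95% intervals and hatched bars did not pass. MICA in starved cells and ULBP2 in caMKL1 cells stand beside genes with little change or a fall as well as genes that rose.

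The genes with the nearest pattern to each member were found by the root mean square difference of the 3 log2 fold changes (starvation, MKL1, caMKL1) over 12661 genes. For MICA they were ZNF699 (0.04), FNIP1 (0.05) and ZFP28 (0.06), and for MICB they were RAD1 (0.01), TMEM129 (0.01) and ZNF317 (0.02). For ULBP2 they were EPHB2 (0.06), PDLIM3 (0.06) and NPTN (0.10), and for ULBP3 PARP3 (0.02), TMEFF1 (0.03) and TAFA3 (0.04). For RAET1E they were DNER (0.07), TSHZ2 (0.07) and MRGPRX4 (0.07). These distances rest on 3 values per gene and describe likeness only.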

How the data were processed

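Polyadenylated RNA of 15 libraries was measured. The submitters' processing notes name GRCh38, RSEM, DESeq2, StringTie 1.3.1, HISAT2 2.2.4 and Bowtie2 2.2.8, with no role stated. The deposited counts are whole numbers and may be rounded RSEM estimates; the deposited FPKM are the authors' per-length values; the deposited log2 fold changes, p-values and adjusted p-values are the authors' own. The sources used here give neither annotation release nor strand setting. Both overexpression tables hold identical control vector counts, which entered joint fits once.

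The main test was edgeR's (version 4.0.16, R 4.3.3; TMM, filterByExpr, two-sided quasi-likelihood test, Benjamini-Hochberg over all tested genes, threshold 0.05). CPM use the TMM factors. An SE is the absolute log2 fold change over the square root of F, and 95% intervals use the t quantile at the test's degrees of freedom. The floor of 3 counts covers counting error only. Tests were checked on simulated data with 200 changed genes each. In the starvation, MKL1, caMKL1, caMKL1 against MKL1 and starvation minus caMKL1 comparisons (13212, 13319, 13390, 13426 and 13415 genes), 1.5-fold changes were called in 68.75%, 75%, 71.21%, 72.06% and 33.33% of genes so changed, and 2-fold changes in 92.75%, 88.41%, 94.37%, 94.74% and 87.1%. False calls made up 5.405%, 5.946%, 7.368%, 2.198% and 5.732% of all calls, so 4 of the 5 lay slightly above the 5% aimed at. The simulation gave every gene the same spread, left out genes with low mean counts, and changed far fewer genes than were called here. These rates therefore do not carry over to the spread of the real libraries or to members with few counts, such as RAET1L and ULBP1. Alternatives included DESeq2 1.42.0, other scalings and filters, a replicate block and leaving out libraries. Named genes were the 8 members, MRTFA, up to 3 genes per list by smallest p in a comparison, and 3 nearest genes per member, with values in any comparison. SRF, ADAM10, ADAM17, NECTIN2, LRP11 and the markers fall outside that rule and were named after their values were seen. The members and lists were chosen with earlier results of these data known.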

Additional observations from a re-analysis of the deposited data

How the results depend on the processing

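MICA and RAET1E in starved cells and ULBP2, RAET1E and MICB with caMKL1 kept their direction and their call in all alternatives tried. So did ULBP2 and ULBP3 between caMKL1 and MKL1, and the differences between starvation and caMKL1 for MICA, MICB, ULBP2 and ULBP3. The RAET1L difference kept its call in the 20 alternatives that tested it. The stricter filter left RAET1L out, and no support is drawn from its call. The number of genes called with MKL1 was 4182 and ranged from 2595 to 4094 when 1 library was left out, the lowest without MKL1 library 3. Left-out libraries turned 2 values that had not passed: ULBP2 in starved cells ranged from -0.043 to 0.121 on the log2 scale, the lowest without 0.1% FBS library 2, and the RAET1G difference from -0.998 to 0.364, the highest without 10% FBS library 2. ULBP3 passed in starved cells without 10% FBS library 2 (adjusted p = 0.0247) or 0.1% FBS library 1 (0.0496), and with MKL1 without control vector library 1 (0.023). MICB between caMKL1 and MKL1 passed when scaled by library totals (0.0174). The cause was not tested. That scaling also moved the share of calls that were higher in caMKL1 than in MKL1 cells to 35.8%, against 48.3%. Libraries with the same replicate number did not deviate together (correlations of -0.06 to 0.11), so the numbers were not taken as pairs. With the number as a replicate block, 8668 genes were called in starved cells, 4569 with MKL1, 8710 with caMKL1, 7396 between caMKL1 and MKL1 and 8020 for the difference, and among the members only RAET1E with MKL1 lost its call (adjusted p = 0.0559). The order of mean FPKM was the same for all 8 genes in each group as TPM. Counts of 1 to 16 limit RAET1G and RAET1L, and counts of 0 to 2 limit ULBP1. RAET1L was also below the filter in the starvation, MKL1, caMKL1 and caMKL1 against MKL1 fits, and RAET1G in the starvation and MKL1 fits.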
